A study of Mus musculus with 24 samples.

Results

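Claudins are membrane proteins of the tight junction, the belt of contacts that closes the space between neighbouring epithelial cells. The values of 10 claudin genes, Cldn1, Cldn2, Cldn3, Cldn4, Cldn6, Cldn7, Cldn9, Cldn10, Cldn12 and Cldn23, were followed through RNA-seq libraries of sorted cells from the mouse embryonic pancreas. They were picked by name from 40173 genes in the deposited tables, and 15 further genes with claudin names were present beside them. A higher level of Cldn2 in the libraries titled mutant, in these same data, led to the choice of the family. Differences between titled control and titled mutant libraries are therefore given for the 10 genes as a description without a test, and tests were kept for the diets and for other genes.

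The cells came from E15.5 embryos. Their dams were 6 weeks old and ate a normal (ND), high-fat (HFD) or low-protein (LPD) diet, which began 2 weeks ahead of mating and lasted until the embryos were collected, while sires ate a control diet. All embryos carried at least 1 allele in which eGFP replaces the coding region of Neurog3, also written Ngn3, whose protein drives progenitor cells of the pancreas into the endocrine lineage. The eGFP-positive cells of pooled sexes were dissociated with trypsin and sorted, so that eGFP marks cells in which the Neurog3 locus is or was active, with or without the protein. The 21 grouped libraries comprised 3 titled control and 4 titled mutant libraries on ND, 3 and 3 on HFD, and 4 and 4 on LPD. In the labels, the genotype entry is Ngn3eGFP/eGFP for titled control and Ngn3eGFP/+ for titled mutant libraries, whereas Neurog3 lay at 98.95 to 276 counts scaled per library total (CPM) of all counts in the titled control libraries and at 6.13 to 23.2 CPM in the titled mutant libraries. Neurog3 thus went with the titles, and the groups are named by title throughout. The labels do not say whether libraries of a group came from separate litters, so p-values measure the spread between these libraries only.

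Library totals ranged from 17922240 to 44688814 counts, and a single noncoding gene, Gm26917, took 9.21% to 66.9% of them, with the highest share in mutant ND 2. Scaling by trimmed mean of M values (TMM) was applied to the counts, and values below are TMM-scaled CPM unless FPKM, which also divides by gene length, is named. The sum of 13 endocrine hormone and islet genes was 4150 to 9278 CPM in titled control ND and 22.7 to 31.5 CPM in titled mutant ND libraries. The sum of 18 acinar genes, enzymes and transcription factors among them, was 7290 to 9485 CPM and 14465 to 27148 CPM in the same groups, and the sum of 6 genes of pancreatic epithelium was 1663 to 1869 CPM and 2207 to 2385 CPM. The sum of 14 mesenchyme genes was 10638 CPM in mutant ND 2 and 4937 CPM in mutant ND 3, against at most 2358 CPM in the other 19 libraries. In these bulk samples fewer cells of a type and less RNA per cell cannot be told apart. The marker sums that separate the titles on HFD and LPD are given with the claudin differences below.

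Claudin strands in the membranes of neighbouring cells pair head to head, and the kinds of claudin present set how tight the seal is and which ions pass it. Cldn1, Cldn3 and Cldn4 are known as barrier-forming claudins, Cldn2 forms a paracellular channel for small cations and water, and Cldn10 is made from alternative first exons as isoforms that differ in ion selectivity. Cldn6 and Cldn9 are known from embryonic epithelia, Cldn7 binds the adhesion protein Epcam and lies largely along the lateral membrane, and Cldn12 and Cldn23 are less typical members. In the developing pancreas, tight junctions separate the lumen of the epithelial tubes from the surrounding tissue, and endocrine cells leave that epithelium as they form.

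The 250 bases before the RefSeq start of transcription (GRCm38.p6) are shown for Cldn2, the gene that led to the choice of the family, for Cldn10, the member that changed with diet, and for Cldn3 and Cldn4, neighbours on chromosome 5 whose levels differed in opposite directions between the titles. RefSeq windows were found for 8 of the 10 genes, not for Cldn9 and Cldn23. The sequences read 5′ to 3′ along the strand of the gene, and capitals mark motifs on either strand. These are CACCTG, an E-box of Snail and Zeb factors, TTTATG, a motif of CDX factors, AGATAA, a motif of GATA factors, TATAAA, the TATA box, GGGCGG, the GC box, and GTTAAT, a piece of the HNF1 motif. The Cldn2 window is chrX:139800558-139800807 on the plus strand. The Cldn3 window is chr5:134985964-134986213 on the plus strand, and the Cldn4 window is chr5:134946935-134947184 on the minus strand. The Cldn10 windows are chr14:118787621-118787870 for the distal and chr14:118854700-118854949 for the proximal start, both on the plus strand.
Cldn2: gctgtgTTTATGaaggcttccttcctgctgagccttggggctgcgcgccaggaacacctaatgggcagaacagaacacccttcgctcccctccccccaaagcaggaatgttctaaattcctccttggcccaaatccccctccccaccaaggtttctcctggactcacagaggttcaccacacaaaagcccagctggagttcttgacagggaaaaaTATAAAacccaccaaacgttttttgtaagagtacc
Cldn3: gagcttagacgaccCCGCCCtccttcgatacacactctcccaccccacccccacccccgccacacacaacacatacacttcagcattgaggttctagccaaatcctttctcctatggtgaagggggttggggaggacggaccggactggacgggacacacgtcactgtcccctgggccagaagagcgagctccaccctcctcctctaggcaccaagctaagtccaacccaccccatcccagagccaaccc
Cldn4: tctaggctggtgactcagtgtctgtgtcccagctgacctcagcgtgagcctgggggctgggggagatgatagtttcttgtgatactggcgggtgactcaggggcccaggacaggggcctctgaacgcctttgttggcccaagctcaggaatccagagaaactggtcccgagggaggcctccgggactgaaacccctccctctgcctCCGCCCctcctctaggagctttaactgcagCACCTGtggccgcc
Cldn10 distal start: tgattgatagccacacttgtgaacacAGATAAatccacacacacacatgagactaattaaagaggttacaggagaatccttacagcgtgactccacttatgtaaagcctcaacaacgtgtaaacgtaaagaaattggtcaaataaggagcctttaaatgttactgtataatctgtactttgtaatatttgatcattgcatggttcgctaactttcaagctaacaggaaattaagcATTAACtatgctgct
Cldn10 proximal start: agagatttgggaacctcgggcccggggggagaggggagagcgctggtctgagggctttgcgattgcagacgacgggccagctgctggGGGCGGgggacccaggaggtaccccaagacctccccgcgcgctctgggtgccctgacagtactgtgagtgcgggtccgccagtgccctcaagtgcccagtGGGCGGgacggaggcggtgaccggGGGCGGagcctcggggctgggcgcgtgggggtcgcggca

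The Cldn2 window held TTTATG with its first base at position -244 and TATAAA at -35, counted from the base before the start as -1. Among all 32851 windows of the same length, 10.8% held TTTATG and 12.4% held TATAAA. The Cldn4 window held CACCTG at -14, beside the start, and CACCTG occurred in 17.2% of all windows. The Cldn10 distal window held AGATAA at -224 and GTTAAT at -15, which occurred in 9.99% and 6.43% of all windows, and the proximal window held 3 copies of GGGCGG. The GC box was also marked in the Cldn3 window, at -236, and in the Cldn4 window, at -44, and it occurred in 32.7% of all windows. AACNGGTT, the grainyhead motif, was in none of the windows of the 8 genes that had one and in 1.79% of all windows. These matches are letters in a window, and binding was not measured.

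By level per length, Cldn3 was the most abundant member, with a median of 155 FPKM over the 21 libraries and a range of 69.1 to 210 FPKM. Cldn6 followed at a median of 70.8 FPKM, Cldn7 at 58.2 FPKM, Cldn4 at 48.6 FPKM and Cldn10 at 28.6 FPKM. Cldn3 was above Cldn6 in 20 of 21 libraries and Cldn6 above Cldn7 in 17, whereas Cldn7 and Cldn4 exchanged places, with Cldn7 higher in 13 libraries. A lower tier held Cldn12 at a median of 7.90 FPKM, Cldn2 at 2.86 FPKM, Cldn23 at 2.71 FPKM and Cldn9 at 1.96 FPKM. Cldn2 was above Cldn23 in 11 of 21 libraries, so these neighbours had no fixed order. Cldn1 lay at a median of 0.079 FPKM, with 366 counts in all 21 libraries together and none in mutant ND 2 and control LPD 2.

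**Figure D1:**
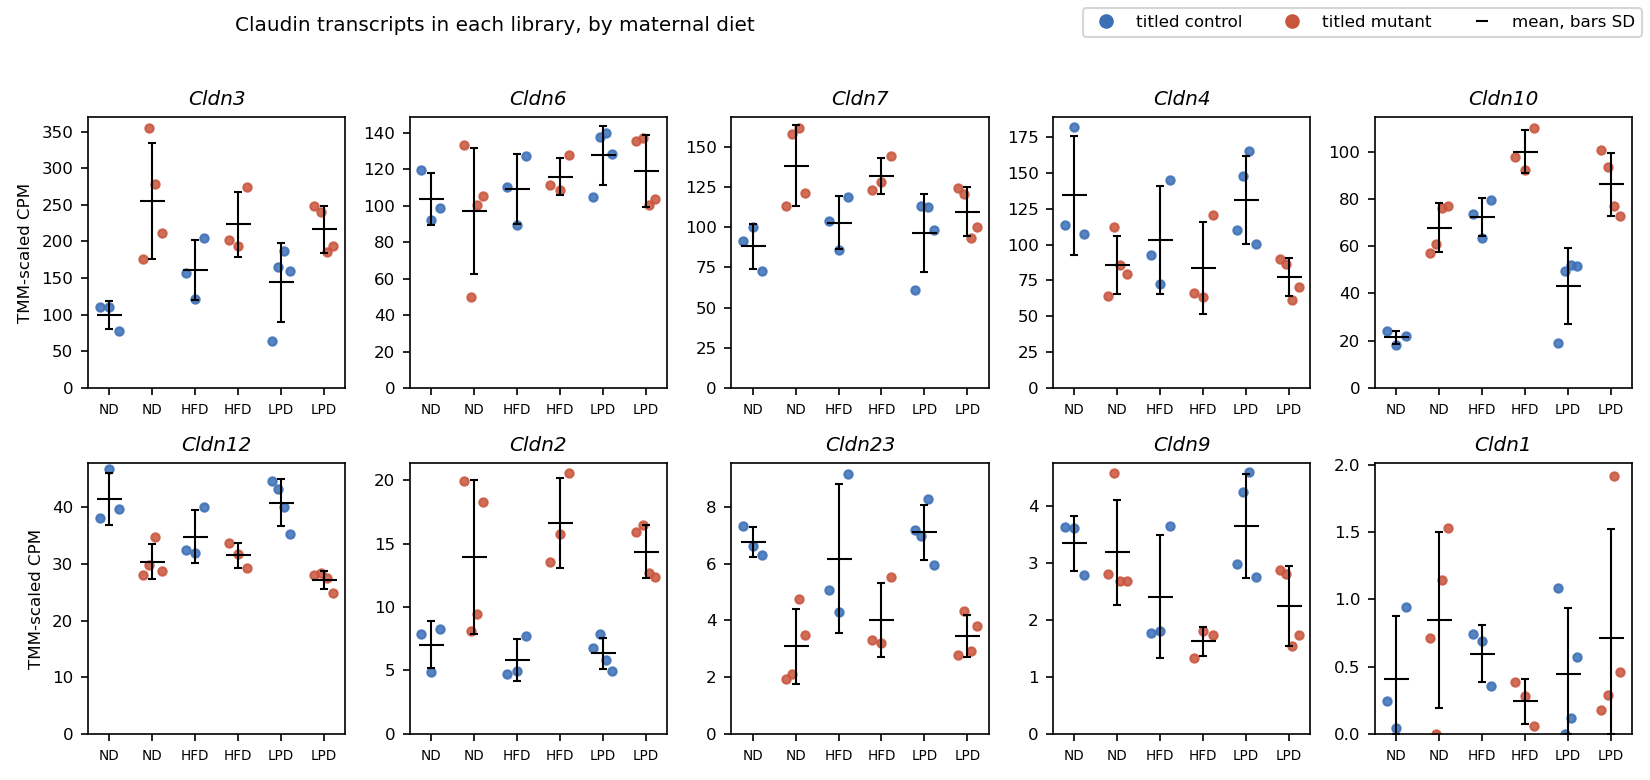
TMM-scaled CPM of each of the 10 claudin genes in every library by diet and title, on linear axes from 0, with points for libraries, a dash for the group mean and bars for the SD. Cldn2 and Cldn10 lie higher in titled mutant libraries on HFD and LPD without overlap, and Cldn10 in titled control libraries on ND lies between 18.4 and 23.9 CPM, below every other group except control LPD 1.

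All 10 genes passed the filter on low counts that 23630 genes, 58.8% of the table, passed. Cldn3, with 1559 to 9016 counts per library, and Cldn4, with 960 to 5642, were counted deeply, whereas Cldn9 had 39 to 157 counts and Cldn1 0 to 56. The SE of the title differences was nevertheless similar for Cldn3, at 0.29 on ND, and Cldn9, at 0.33. The Cldn3 body (ENSMUSG00000070473.4, chr5:134986214-134987472, plus strand) is overlapped by an antisense gene, Wbscr25, and lies 39279 bases from Cldn4 (ENSMUSG00000047501.3, chr5:134945119-134946934, minus strand). Cldn6 (ENSMUSG00000023906.3, chr17:23679249-23682446, plus strand) and Cldn9 (ENSMUSG00000066720.7, chr17:23682584-23684026, minus strand) lie 137 bases apart on opposite strands. The libraries were strand-specific per the labels, but no source used here gives the strand setting of the counting, so reads of overlapping genes may not be fully separated.

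Cldn2 (ENSMUSG00000047230.6, chrX:139800828-139811386, plus strand), the channel-forming member, gave 69 to 674 counts per library. On ND its level was 4.89, 8.30 and 7.87 CPM in the titled control libraries 2, 3 and 4 and 19.98, 8.09, 9.45 and 18.3 CPM in the titled mutant libraries 1 to 4. Mutant ND 2 lay inside the control range, so the groups overlapped on ND. On HFD the titled control libraries gave 4.70, 4.99 and 7.70 CPM and the titled mutant libraries 13.6, 15.8 and 20.5 CPM. On LPD they gave 6.81, 7.84, 5.79 and 4.97 CPM against 15.9, 16.5, 12.7 and 12.4 CPM. Every titled mutant library on HFD and LPD was above every titled control library on its diet. The fitted log2 difference was 0.999 (SE 0.30) on ND, 1.52 (SE 0.31) on HFD and 1.18 (SE 0.27) on LPD, or 2.00-fold, 2.86-fold and 2.26-fold higher in titled mutant. The family was chosen on this difference, so none of the 3 values is independent evidence of it.

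Cldn10 (ENSMUSG00000022132.15, chr14:118787908-118875489, plus strand) gave 421 to 4332 counts per library, counted over the gene, so that its isoforms were not separated. On ND its level was 18.4, 21.9 and 23.9 CPM in titled control and 57.0, 61.0, 76.0 and 77.1 CPM in titled mutant libraries. On HFD it was 73.7, 63.6 and 79.5 CPM against 97.7, 92.1 and 110 CPM. On LPD it was 19.1, 49.4, 51.9 and 51.7 CPM against 101, 93.3, 77.2 and 72.9 CPM. In CPM titled mutant libraries were higher without overlap on each diet, with a log2 difference of 1.66 (SE 0.25) on ND, 0.47 on HFD and 0.999 on LPD, and control LPD 1 stood far below the other LPD controls.

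Among the barrier-forming members, Cldn3 and Cldn4 differed in opposite directions. Cldn3 lay at 111, 77.4 and 110 CPM in titled control ND and at 176, 355, 278 and 212 CPM in titled mutant ND libraries, which did not overlap. On HFD it lay at 157, 122 and 205 CPM against 202, 194 and 275 CPM, and on LPD at 64.7, 165, 187 and 160 CPM against 248, 241, 185 and 193 CPM, and on both diets the groups overlapped. Its log2 difference was 1.36 (SE 0.29) on ND, 0.47 on HFD and 0.59 on LPD.

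Cldn4 was at 182, 107 and 113 CPM in titled control ND and 64.1, 113, 86.1 and 79.4 CPM in titled mutant ND libraries. It was at 92.9, 72.2 and 145 CPM against 66.5, 63.8 and 121 CPM on HFD, and at 110, 148, 165 and 101 CPM against 89.8, 86.5, 61.6 and 70.7 CPM on LPD. It was lower in titled mutant libraries without overlap in CPM on LPD alone, with log2 differences of -0.65 (SE 0.27), -0.31 and -0.76 on ND, HFD and LPD. Cldn7 (ENSMUSG00000018569.12, chr11:69964779-69967885, plus strand) was higher in titled mutant on ND, at 113 to 161 CPM against 72.6 to 100.03 CPM, and on HFD, at 123 to 144 CPM against 85.6 to 119 CPM, and the groups overlapped on LPD. Cldn1 (ENSMUSG00000022512.3, chr16:26356642-26371841, minus strand) never passed 1.91 CPM, and its log2 differences of 1.07 on ND (SE 1.04), -1.26 on HFD and 0.72 on LPD rest on few counts.

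Of the members known from embryonic epithelia, Cldn6 had the smaller differences. Cldn6 lay at 92.3, 98.98 and 120 CPM in titled control ND and at 133, 49.8, 100.2 and 105 CPM in titled mutant ND libraries, and its log2 difference was -0.09, 0.09 and -0.10 on ND, HFD and LPD. Cldn9 lay between 1.33 and 4.59 CPM in all 21 libraries, with log2 differences of -0.10 (SE 0.33) on ND, -0.58 (SE 0.35) on HFD and -0.70 (SE 0.30) on LPD, and its groups overlapped on every diet in CPM.

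Of the less typical members, Cldn23 (ENSMUSG00000055976.6, chr8:35824712-35826559, minus strand) was at 6.63, 6.30 and 7.32 CPM in titled control ND and at 1.95, 2.11, 4.77 and 3.49 CPM in titled mutant ND libraries. Its log2 difference was -1.11 on ND, -0.62 on HFD and -1.04 on LPD, with no overlap on ND and LPD. Cldn12 (ENSMUSG00000046798.14, chr5:5489537-5514958, minus strand) was at 46.7, 39.8 and 38.1 CPM against 28.1, 29.9, 34.8 and 28.8 CPM on ND, and at 35.3 to 44.7 CPM against 24.9 to 28.4 CPM on LPD. Both genes were thus lower in every titled mutant library on ND and LPD, while their groups overlapped in CPM on HFD.

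On each diet 5 of the 10 genes were higher and 5 lower in titled mutant. The groups did not overlap for 5 genes on ND, 3 on HFD and 5 on LPD, beside 26.6%, 35.8% and 28.3% of all genes tested. The median log2 difference of the 10 genes was 0.28 on ND, -0.03 on HFD and 0.04 on LPD, beside 0.01, -0.01 and 0.02 over all genes. For all genes tested, 27% on ND, 5.78% on HFD and 15.6% on LPD passed an adjusted p of 0.05 between the titles in edgeR's quasi-likelihood test. On deposited FPKM the median of all genes moved by -0.23 (log2, pseudocount 1) on ND, and relative to that shift Cldn2 at 0.35, Cldn3 at 0.79 and Cldn10 at 1.05 stayed higher. The acinar sum was higher in titled mutant libraries on each diet, at 25044 to 30918 CPM against 36150 to 38269 CPM on HFD and 6033 to 18156 CPM against 26778 to 35990 CPM on LPD, and the endocrine sum was lower, at 2254 to 3896 CPM against 15.54 to 119 CPM on HFD and 2389 to 5286 CPM against 14.9 to 423 CPM on LPD. The sum of 10 neural crest and glial genes was higher, at 279 to 335 CPM against 340 to 390 CPM on HFD and 214 to 308 CPM against 317 to 367 CPM on LPD. On ND these sums overlapped, at 225 to 282 CPM against 268 to 319 CPM. The list did not rise as a whole, with a median log2 difference of its 10 genes of -0.04 on HFD and 0.01 on LPD. On HFD 0 of them were called higher and on LPD 1. The part of these cell types in the differences of Cldn2, Cldn3, Cldn4, Cldn10, Cldn12 and Cldn23 was not tested.

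Whether the groups overlapped depended on the scale for some genes. On deposited FPKM, which TMM scaling does not touch, Cldn10 on ND lay at 6.43 to 11.2 FPKM in titled control and 8.98 to 29.98 FPKM in titled mutant libraries, and Cldn7 on ND at 45.9 to 56.7 and 30.9 to 65.5 FPKM. Both overlapped there through mutant ND 2, the library in which Gm26917 took 66.9% of the counts. Conversely, on FPKM titled mutant libraries did not overlap and were lower for Cldn4 on ND, at 23.6 to 44.1 FPKM against 72.7 to 90.9 FPKM, and for Cldn12 on HFD, at 6.65 to 7.90 FPKM against 8.06 to 9.52 FPKM. Cldn3 on LPD was higher without overlap, at 158 to 194 FPKM against 69.1 to 150.0 FPKM. Cldn9 was lower without overlap on FPKM on each diet, at 1.21 to 2.20 FPKM against 2.28 to 3.04 FPKM on ND, 0.915 to 1.26 against 1.29 to 2.54 FPKM on HFD and 1.21 to 1.96 against 2.03 to 3.22 FPKM on LPD. In CPM Cldn9 on ND lay at 2.68 to 4.57 against 2.79 to 3.63. Gm26917 also took 33.4% of the counts in mutant ND 3 and 32.7% in control ND 2. Its part in the lower FPKM of Cldn4 and Cldn9 on ND was not tested. The share of all genes without overlap on FPKM was not counted.

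**Figure D2:**
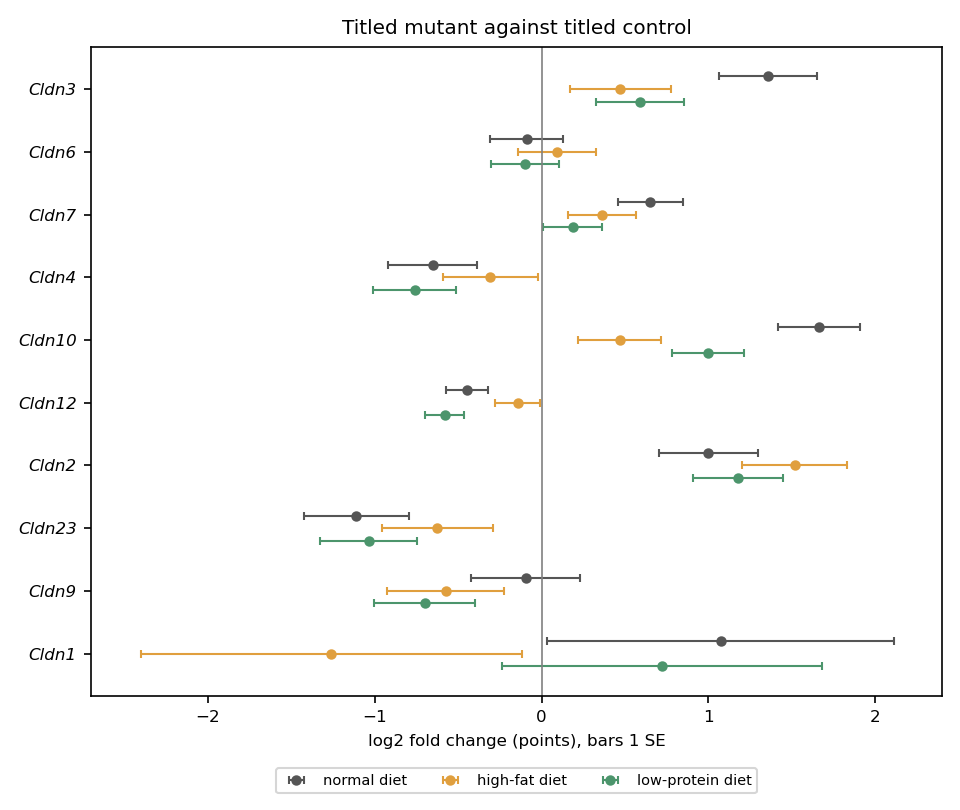
Fitted log2 difference of titled mutant minus titled control for each of the 10 genes on each diet, with points for the estimate and bars for 1 SE, as a description. Cldn2, Cldn3, Cldn7 and Cldn10 lie above 0 on all 3 diets and Cldn4, Cldn9, Cldn12 and Cldn23 below 0, and the bars of Cldn1 are the widest.

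The composition of the claudin set within a library does not depend on scaling between libraries. Cldn3 made up 25.5% to 29.9% of the summed FPKM of the 10 genes in titled control ND and 40.2% to 57.4% in titled mutant ND libraries. On HFD its share was 35.9% to 38.0% against 41.7% to 44.3%, and on LPD 22.3% to 37.1% against 44.2% to 44.6%. The Cldn3 share was therefore higher in titled mutant libraries without overlap on each diet, although its CPM overlapped on HFD and LPD. A share also rises when other members of the set fall, so it does not measure Cldn3 alone.

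Cldn4 had a mean share of 25.7% in titled control and 11.2% in titled mutant libraries on ND, 16.2% and 10.9% on HFD, and 21.3% and 10.9% on LPD. The Cldn10 share was 2.96% and 6.34% on ND, 8.26% and 9.41% on HFD, where the groups overlapped, and 4.68% and 8.57% on LPD. Cldn2 remained a minor part of the set, at 0.767% and 1.07% on ND, where the groups overlapped, 0.506% and 1.21% on HFD, and 0.587% and 1.12% on LPD. The mean shares of Cldn7 lay between 14.3% and 16.9% in all 6 groups, the steadiest of the abundant members.

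**Figure D3:**
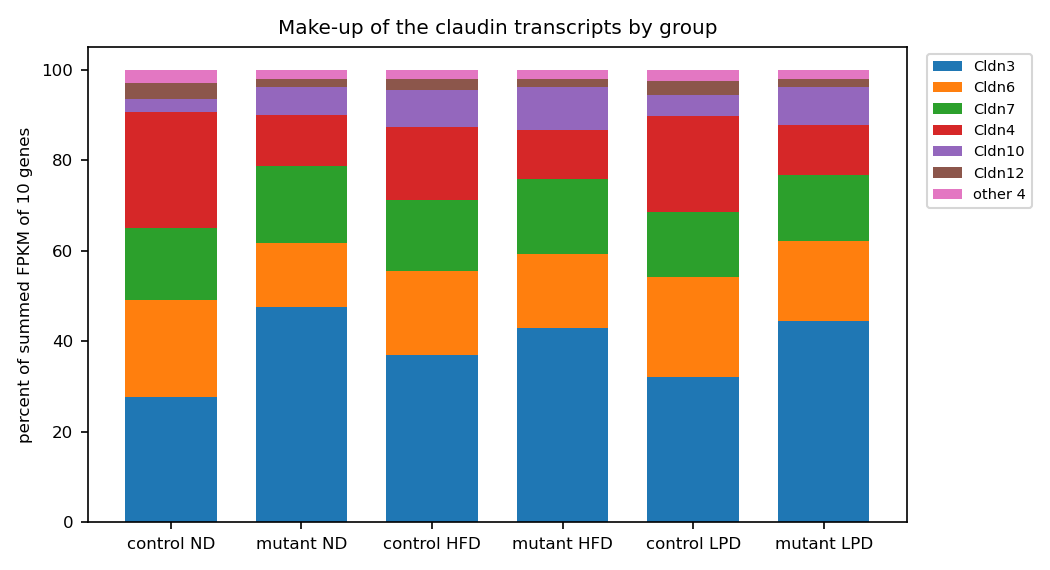
Share of each claudin gene in the summed FPKM of the 10 genes, as the mean of each group in percent. The Cldn3 segment is the largest in every group and wider in the titled mutant groups, where the Cldn4 segment is about 11% on each diet.

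Diet was tested within each title, and 1 of the 10 genes changed. Cldn10 rose on HFD against ND in titled control libraries, by 1.75 on the log2 scale (SE 0.26, 95% interval 1.21 to 2.30), from a mean of 21.4 ± 2.80 CPM (SD, n = 3) to 72.3 ± 8.02 CPM (SD, n = 3), with an adjusted p of 0.00243 in edgeR's quasi-likelihood test over all genes. The 3 HFD libraries, at 63.6 CPM or more, lay far above the 3 ND libraries, at 23.9 CPM or less. In that comparison 3.91% of all genes passed, 733 of them higher and 191 lower on HFD. The call was lost on deposited FPKM with a pseudocount of 0.1, where the difference was 1.70 with an adjusted p of 0.0633 in limma. The acinar sum moved in the same direction, from 7290 to 9485 CPM on ND to 25044 to 30918 CPM on HFD, with 12 of 18 acinar genes rising and none falling, and its part in the Cldn10 difference was not tested. Library numbers, which the labels give with no meaning, were 25 or above for 2 of the 3 ND controls and lower for all HFD libraries. When the libraries numbered from 25 upward were given a shared offset in the fit, the Cldn10 difference was 1.79. All of these libraries were on ND. The ND control level then rested mainly on control ND 4, and mutant ND 1 helped to set the offset. The part of library order in the Cldn10 difference was therefore not tested.

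On LPD against ND in titled control libraries Cldn10 differed by 1.01 (SE 0.24) with an adjusted p of 0.612 in edgeR, and the groups overlapped through control LPD 1. Without that library the difference was 1.24 with an adjusted p of 0.000612, so 1 library decided the call. Control LPD 1 also had the lowest acinar sum of the 21 libraries, 6033 CPM beside 15960 to 18156 CPM in the other LPD controls. No gene in the table passed this comparison with all libraries (0% of 23630). HFD against LPD in titled control libraries likewise gave 0% of all genes, and Cldn10 differed there by 0.75 with an adjusted p of 0.746 in edgeR, although its groups did not overlap. At an unadjusted p of 0.05 Cldn10 was the 1 claudin gene that passed in each of these comparisons, and DESeq2 called none of the 10. Shares of all genes at that unadjusted threshold are not given here.

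In titled mutant libraries none of the 10 genes passed on HFD against ND, where 2.86% of all genes did, nor on LPD against ND, where 1.05% did, nor on HFD against LPD, where 0% did. At an unadjusted p of 0.05 the edgeR counts of the 10 genes were 2, 0 and 0, and the shares of all genes at that threshold are not given here. The 2 were Cldn9, lower on HFD than on ND by a log2 difference of -0.95 (SE 0.34, adjusted p 0.114 in edgeR), and Cldn10, at 0.56 (SE 0.23, adjusted p 0.16 in edgeR). DESeq2 called Cldn9 there with an adjusted p of 0.0374 and made no other call among the 10 genes in these 3 comparisons, and Cldn10 reached an adjusted p of 0.0284 in edgeR without control LPD 1. Cldn9 was at 2.80, 4.57, 2.69 and 2.68 CPM on ND and 1.33, 1.81 and 1.74 CPM on HFD, so the groups did not overlap in CPM. On FPKM they overlapped, at 1.21 to 2.20 FPKM on ND and 0.915 to 1.26 FPKM on HFD. Cldn10 did not overlap on either scale, at 57.0 to 77.1 CPM on ND and 92.1 to 110 CPM on HFD, or 8.98 to 29.98 FPKM and 35.8 to 40.8 FPKM.

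Cldn3 in titled control libraries was at 122 to 205 CPM on HFD and 77.4 to 111 CPM on ND without overlap, with a log2 difference of 0.69 and an adjusted p of 0.211 in edgeR. Cldn2 did not pass in any diet comparison. Its difference on HFD against ND had a 95% interval of -0.94 to 0.38 in titled control and -0.37 to 0.85 in titled mutant libraries. On LPD against ND the intervals were -0.77 to 0.47 and -0.53 to 0.60. Differences within these intervals were not excluded by these libraries.

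Whether the diets acted differently under the 2 titles was tested as an interaction, and 0%, 0% and 0% of all genes passed for HFD against ND, LPD against ND and HFD against LPD in edgeR. At an unadjusted p of 0.05, 2, 1 and 1 of the 10 genes passed, and DESeq2 called none of the 10 after adjustment. The shares of all genes at the unadjusted p are not given here. The interaction of Cldn10 for HFD against ND was -1.20 (SE 0.34, 95% interval -1.93 to -0.46) with an adjusted p of 0.639 in edgeR. Its direction was that of a smaller HFD difference in titled mutant libraries, where the ND level was already 67.8 ± 10.3 CPM (SD, n = 4). For Cldn2 the interaction interval was -0.38 to 1.42 for HFD and -0.66 to 1.02 for LPD.

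**Figure D4:**
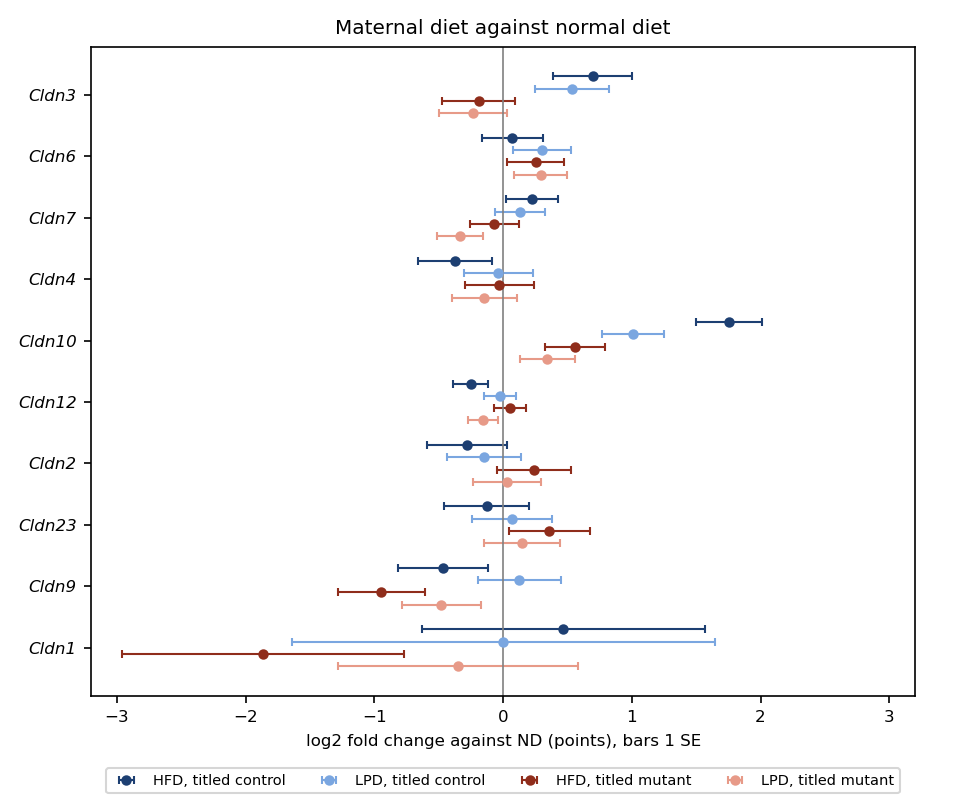
Fitted log2 difference for HFD and LPD against ND within titled control and titled mutant libraries for each of the 10 genes, with points for the estimate and bars for 1 SE. Cldn10 on HFD in titled control libraries, at 1.75, is the one value that passed the adjusted threshold.

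Claudins act with other membrane proteins, with scaffolds under the membrane and with transcription factors that set epithelial identity, and 80 such genes in 4 lists were tested between the titles. On ND 25 were higher and 9 lower in titled mutant libraries at an adjusted p of 0.05 in edgeR, on HFD none was higher and 3 were lower, and on LPD 11 were higher and 8 lower. Over all genes 27% were called on ND, 3234 higher and 3147 lower, 5.78% on HFD, 33 higher and 1333 lower, and 15.6% on LPD, 1234 higher and 2449 lower, so the lack of higher calls on HFD was shared with the table as a whole. Cldn11, Ildr1, Amotl2, Ovol1, Cdx2, Gata4 and Wnk4 passed on ND under every alternative processing and without each library in turn, 7 of the 34 genes called. On LPD 4 of 19 did so, Cldn11, Amotl2, Cdx2 and Wnk4, and on HFD Cldn11 alone. The median log2 difference of the 80 genes was 0.26, 0.10 and 0.21 on ND, HFD and LPD, beside 0.01, -0.01 and 0.02 over all genes.

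The balance of directions depended on scaling. On deposited FPKM with a pseudocount of 1, limma gave 3 higher and 12 lower of the 80 genes on ND and 3 higher and 6 lower on LPD, beside the shift of -0.23 in all genes on ND. On HFD 11 genes were higher and 9 lower at an unadjusted p of 0.05, DESeq2 called 5 genes, and a fit of the HFD libraries alone called 13 higher and 7 lower. The HFD count was 5 without control LPD 1 or without mutant ND 2, the LPD count was 29 without mutant ND 2, and the LPD count was 6 without the 3 titled mutant libraries with hormone counts. A difference between diets in these title differences was called for none of the 80 genes in edgeR. At an unadjusted p of 0.05 the interaction was higher for 1 gene and lower for 8 with HFD against ND, and higher for 1 and lower for 2 with LPD against ND. Shares of all genes under the alternative fits and at the unadjusted p are not given here. Whether these moves in the counts were shared by the table as a whole is therefore not shown.

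Among 10 other claudins tested, Cldn11, a claudin of myelin and of Sertoli cells, fell in titled mutant libraries on each diet. Its level was 15.7 to 34.7 CPM in titled control and 0 to 0.937 CPM in titled mutant libraries on ND, 8.67 to 10.9 against 0.518 to 1.40 CPM on HFD, and 6.44 to 14.8 against 0.650 to 1.73 CPM on LPD, and the groups did not overlap. The log2 differences were -4.98, -3.50 and -3.32 with adjusted p of 3e-07, 0.000108 and 1.42e-05 in edgeR. Cldn8, a barrier claudin of the kidney, rose on LPD by 1.09 (SE 0.23, adjusted p 0.00207 in edgeR) and on ND by 1.28 (SE 0.26, adjusted p 0.000861), from 3.12 to 4.10 CPM to 7.27 to 11.2 CPM, and the ND call was lost on FPKM, where the difference was 0.54 with an adjusted p of 0.0941 in limma. Cldn15, a cation-channel claudin of the gut, rose on ND by 1.08 (adjusted p 0.0371 in edgeR), a call lost under several settings and 0.21 on FPKM. Cldn5, the claudin of endothelium, differed by 1.41 on ND with an adjusted p of 0.0923 in edgeR, and Cldn18, a claudin of stomach and lung, by 0.80 with an adjusted p of 0.122, and neither passed.

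Of 13 other membrane proteins, 4 rose and 2 fell on ND, where 27% of all genes were called, and 2 fell on LPD, where 15.6% were. Ildr1, an angulin that recruits tricellulin to the corners where several cells meet, fell by 1.03 on ND (adjusted p 0.000806 in edgeR), from 34.2 to 44.6 CPM to 11.6 to 23.5 CPM, and by 0.84 on LPD (adjusted p 0.00393). Its ND difference on FPKM was -1.29 (adjusted p 0.00331 in limma). Marveld2 (tricellulin) differed by 0.48 on ND (adjusted p 0.00847 in edgeR), Ocln (occludin) by 0.56 (adjusted p 0.0367) and Lsr, another angulin, by 0.52 (adjusted p 0.026). On FPKM with a pseudocount of 1, where the median of all genes was -0.23, Marveld2 was at -0.02 and Lsr at -0.03, above that shift and no longer past the threshold. Ocln was at -0.03 with a pseudocount of 0.1, where the median of all genes was -0.49.

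Of 28 plaque and polarity genes, 11 rose and 3 fell on ND, beside 27% of all genes called, and 5 rose and 3 fell on LPD, beside 15.6%. Amotl2 of the angiomotin family fell by 0.83 on ND and 1.04 on LPD (adjusted p 0.00393 and 0.00054 in edgeR). Pard3, a polarity scaffold, fell by 0.50 on ND and 0.55 on LPD (adjusted p 0.00362 and 0.00164 in edgeR). Cgnl1 (paracingulin) rose by 0.93 on ND (adjusted p 0.000587 in edgeR), from 62.8 to 91.0 CPM to 119 to 166 CPM, and the scaffold genes Magi1 and Magi3 by 0.79 and 0.67 (adjusted p 0.000245 and 0.000444). On FPKM these 3 ND differences were 0.38, 0.26 and 0.13 and no longer passed. Tjp1 (ZO-1), the scaffold to which claudin tails bind, had log2 differences of -0.27, -0.08 and -0.07 and did not pass on any diet.

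Of 29 regulators and partners, 8 rose and 3 fell on ND, 2 fell on HFD, and 5 rose and 2 fell on LPD, beside 27%, 5.78% and 15.6% of all genes called. Gata4, a transcription factor of pancreatic progenitors and acinar cells, rose by 1.63 on ND (adjusted p 0.000119 in edgeR), from 53.4 to 79.9 CPM to 147 to 260 CPM, and by 0.88 on LPD (adjusted p 0.0138). Ovol1, an epithelial transcription factor, rose by 1.60 on ND (adjusted p 0.000312 in edgeR), from 1.57 to 3.63 CPM to 6.36 to 10.3 CPM, and by 1.12 on LPD (adjusted p 0.00377). Both remained past the threshold on FPKM, at 1.05 and 0.59 on ND. Epcam, the partner of Cldn7, rose by 0.74 on ND (adjusted p 0.00131 in edgeR), from 196 to 255 CPM to 342 to 385 CPM, and Prss8, a membrane protease gene, by 1.01 (adjusted p 0.000658), and on FPKM their differences of 0.21 and 0.47 did not pass.

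Wnk4, a kinase that acts on claudins in the kidney, fell on all 3 diets, by 1.28, 0.99 and 1.25 (adjusted p 0.000129, 0.00794 and 0.000119 in edgeR). Cdx2, an intestinal transcription factor known to act on Cldn2 in gut epithelium, fell by 4.15, 3.66 and 3.52 (adjusted p 0.00115, 0.00713 and 0.00193 in edgeR), from 0.939 to 1.97 CPM in titled control ND to 0 to 0.285 CPM in titled mutant ND libraries. Cdx2 was thus scarce in all of these libraries, and its part in the level of Cldn2 was not tested. Beside these differences 13 of 13 endocrine genes fell on ND and 10 of 13 on HFD and on LPD, and 13 of 18 acinar genes rose on ND, none on HFD and 12 on LPD, and their part was not tested.

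**Figure D5:**
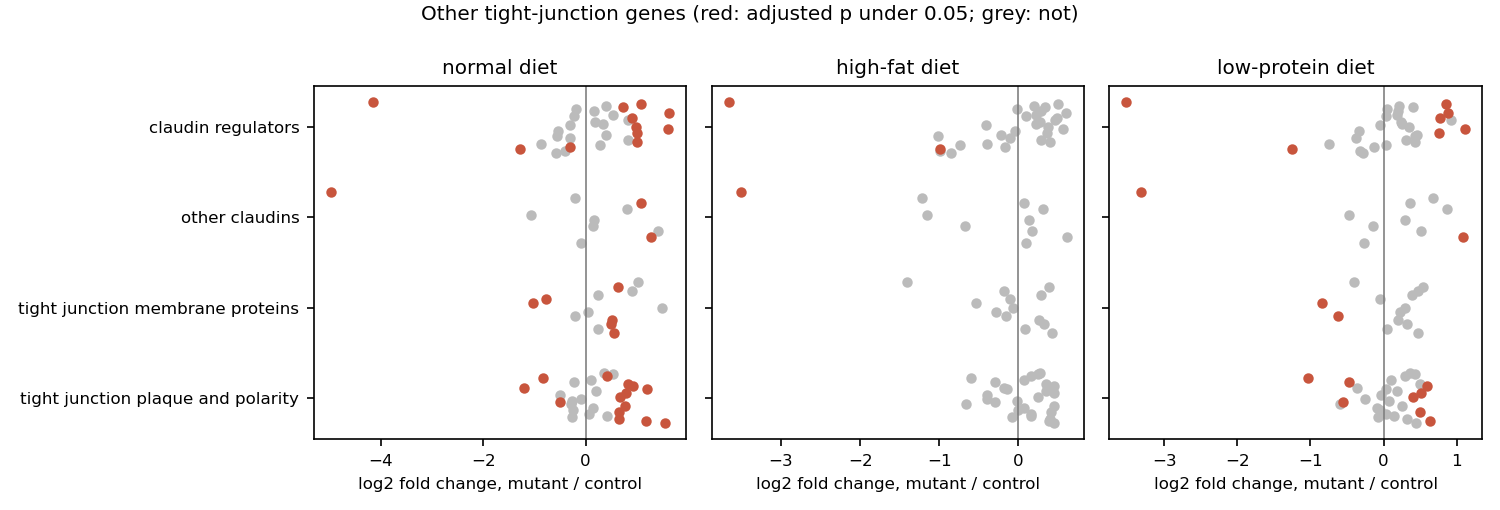
Log2 difference of titled mutant minus titled control for the tested genes of each tight junction list on each diet, with red points for genes past the adjusted threshold of 0.05 and grey points for the others. The most negative red points are Cldn11 and Cdx2, and on HFD 3 points are red.

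Across diets, 4 of the 80 genes rose on HFD against ND in titled control libraries and none fell, a share near the 3.91% of all genes called there. They were Ovol1 by 1.69, Prss8 by 1.01, Gata4 by 1.26 and Grhl2, a grainyhead factor of epithelia, by 0.77 (adjusted p 0.0042, 0.0101, 0.0143 and 0.0422 in edgeR), the same comparison in which Cldn10 rose, and on FPKM the Prss8 and Grhl2 calls were lost. In titled mutant libraries 1 of the 80 genes was higher and 2 were lower on HFD against ND, beside 2.86% of all genes called. On LPD against ND 1 was lower, beside 1.05%. Esrp2, an epithelial splicing factor, rose by 0.50 on HFD (adjusted p 0.0442 in edgeR). Crb2, an apical polarity gene, fell by 1.88 on HFD and 1.90 on LPD (adjusted p 0.0295 and 0.0357 in edgeR). The other gene lower on HFD is not named here. Each of these calls was lost without some single library and on FPKM.

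Likeness of pattern was measured as the root mean square log2 difference between centred profiles over the 6 group means, among 11748 genes whose mean reached 5 CPM. The genes nearest to Cldn2 were Chrdl1 at 0.130, Sez6 at 0.146 and Sod3 at 0.197. Those nearest to Cldn3 were Epn3 at 0.0377, Gask1a at 0.0419 and Thra at 0.0425. Cldn10 had Cbs at 0.0478, Ovol1 at 0.0593 and Mab21l3 at 0.0658 as its nearest genes. The profile of Cldn2 had a less close neighbour than those of Cldn3 and Cldn10. The 6 means share their libraries, so these distances describe the profiles only.

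Outside the 6 groups, the libraries of eGFP-positive hypothalamic cells, 1 titled control and 1 titled mutant on ND, shared some claudins with the pancreas and lacked others. Cldn2, Cldn3 and Cldn6 had 0 counts in both, which allows up to 0.1071 and 0.1002 CPM of all counts at 3 counts, a floor that covers counting error only. Cldn12 had 420 counts (14.99 CPM of all counts, 95% Poisson interval 13.6 to 16.5) and 465 counts (15.53 CPM, interval 14.2 to 17.01). Its pancreatic range was 11.4 to 60.0 CPM of all counts, with the 11.4 in mutant ND 2, where Gm26917 took 66.9% of the counts. The next lowest pancreatic library, mutant LPD 4, was at 25.7 CPM of all counts, above both hypothalamic values. Cldn10 gave 127 and 58 counts there. A library of ND pancreas with mixed genotypes, titled control ND 1 and left out of every comparison, gave 8.05 CPM of all counts for Cldn2, 103 for Cldn3, 9.04 for Cldn10 and 16.8 for Cldn6. In that library Gm26917 took 56.8% of the counts and 80.22% of the reads were duplicates. Its values are not TMM-scaled and cannot be set directly against the CPM of the groups.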

How the data were processed

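Counts per gene and FPKM values were deposited by the authors for 24 strand-specific, rRNA-depleted RNA-seq libraries, and each was used as the labels' titles assign it. Per the submitters' processing notes, cutadapt 2.10, STAR 2.7.8a, featureCounts 2.0.2 and build GRCm38.p6 were used, and neither the strand setting nor the handling of duplicates is stated in the sources used here. FPKM rebuilt from the deposited counts and lengths differed from the deposited FPKM by a median relative difference of 9.57e-05. The percent of duplicate reads was deposited by the authors per library and ranged from 37.74% to 79.38%.

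The deposited counts of 21 pancreatic libraries in 6 groups were fitted together with edgeR 4.0.16 (R 4.3.3) by the quasi-likelihood test, with filterByExpr, TMM scaling, robust dispersion and 15 residual degrees of freedom. Adjustment was by Benjamini-Hochberg over 23630 genes with a threshold of 0.05, in 12 comparisons. DESeq2 1.42.0 on counts and limma 3.58.1 on log2 of FPKM plus 1 or 0.1 were alternatives, besides other scaling, filters, library subsets and leaving out each library. The steps were tested on simulated counts. Replicate numbers did not pair libraries. The least unlike replicates, mutant HFD 1 and 2, differed by 4.39 times the sampling noise in chi-square per degree of freedom. Mutant LPD 1 and 2 differed by 4.70 times, and the next pair, mutant HFD 2 and 3, by 17.3 times. Each library was counted once, although these values cannot show whether such libraries came from separate litters. The library of mixed genotypes and both hypothalamic libraries entered no test. Promoter windows came from RefSeq with Python 3.11.15. All 10 claudins were named, with those genes of the other lists that passed or that are core junction proteins. The members, gene lists and tests were chosen with earlier results of these data known.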

Additional observations from a re-analysis of the deposited data

Results flagged for a closer look

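In groups of 4 libraries, the most extreme library was compared with the rest for each of the 10 claudin genes. Of 30 such groups 3 held a library that stood apart, and chance flags about 1 in 20. Cldn10 was at 19.1 CPM in control LPD 1 and at 49.4 to 51.9 CPM in the other LPD controls, a gap of 0.924 of the range of the group. Cldn9 was at 4.57 CPM in mutant ND 2 and at 2.68 to 2.80 CPM in the other titled mutant ND libraries, a gap of 0.936 of the range. Cldn1 was at 1.91 CPM in mutant LPD 3 and at 0.178 to 0.460 CPM in the others, a gap of 0.838 of the range, just past Dixon's critical value.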

How the results depend on the processing

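Of 90 tested values of the 10 claudin genes, 89 did not pass, and 42 of those changed sign under at least 1 alternative. Cldn10 on HFD in titled control libraries was the one call, and its adjusted p ranged from 6.13e-08 to 0.0633. It was lost on FPKM with a pseudocount of 0.1, so that the count of claudin calls there was 0. DESeq2 called 1 claudin gene, Cldn9, on HFD in titled mutant libraries. Without single libraries the count of claudin calls ranged from 0 to 1 for LPD against ND in titled control and from 0 to 1 for HFD against ND in titled mutant libraries, both 1 without control LPD 1. Of 30 differences between titles, 6 changed sign under at least 1 alternative, and none of the 13 without overlap did. These 13 were picked because their groups lay apart, and 21 alternatives leave out 1 library, which largely keeps such groups apart. Their steady sign thus follows mostly from the choice and was not a test of these differences.

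Counts of other tight junction genes called between the titles were 34, 3 and 19 on ND, HFD and LPD. Limma on FPKM gave 15 on ND and 9 on LPD with a pseudocount of 1, and 14 and 8 with 0.1. DESeq2 gave 5 on HFD. A fit of only the groups compared gave 18 on ND and 20 on HFD. Without the titled mutant libraries with hormone counts LPD gave 6. Leaving out single libraries gave from 23 to 38 genes on ND, from 2 to 5 genes on HFD and from 14 to 29 genes on LPD. Shares of all genes under these settings are not given here. On ND 4 genes changed sign on FPKM: Marveld2 was at -0.0246 with a pseudocount of 1 and -0.0351 with 0.1, Lsr at -0.0252 and -0.0297, Amotl1 at -0.0969 and -0.109, and Ocln at -0.0341 with 0.1. With the replicate number as a block the counts were 33, 3 and 20, Cldn10 on HFD in titled control libraries was at 1.87 (adjusted p 0.00395 in edgeR), and the count of claudin calls there was 1. The numbers mark no shared litter in the labels, and deviations of same-numbered libraries between the titles had correlations of 0.005 to 0.269 on ND, of 0.078 to 0.350 on HFD and of -0.274 to 0.319 with LPD. The causes of these moves were not tested. Cldn1, with at most 56 counts per library, had the widest intervals, and Cldn9, with at most 157, had SEs near those of Cldn3.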
